A study of Homo sapiens with 12 samples.

Results

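The transcripts of 9 ligands of activating receptors on natural killer cells were examined in K562 cells, an established human chronic myeloid leukemia line that carries BCR-ABL and is the usual target cell in assays of natural killer cell killing. The genes were taken by name from the receptors their products bind: MICA, MICB, ULBP1, ULBP2 and ULBP3, which bind NKG2D, PVR and NECTIN2, which bind DNAM-1, and NCR3LG1 and BAG6, which bind NKp30. All 9 had a count in the deposited table of 19447 gene symbols, and 8 passed the filter on low counts in every comparison. The study sequenced polyadenylated RNA from 12 libraries, 3 in each of 4 groups. K562 was the untreated parental line and K562+L the same line given 6 µM lycorine, an alkaloid of Amaryllidaceae plants. K562/IM was a derivative that the authors selected in gradually increased imatinib (IM), the inhibitor of the BCR-ABL kinase, and maintained with the drug at 5 µM, and K562/IM+L was that line with 6 µM lycorine. The time of exposure before sequencing and whether K562/IM came from 1 clone are not given in the sources used here. The labels do not say that the 3 libraries of a group came from separate cultures, so the p-values measure the spread between these libraries, which may be technical.

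Natural killer cells weigh activating against inhibitory signals from the surface of a target cell. NKG2D recognises MIC and ULBP proteins, distant relatives of HLA class I that many cells display when stressed or transformed. DNAM-1 recognises PVR and NECTIN2, which are adhesion proteins, and NKp30 recognises the surface protein B7-H6, encoded by NCR3LG1, and BAG6, which inside the cell is a chaperone that guides tail-anchored and misfolded proteins.

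Total counts per library ran from 75093844 to 107344598. Levels are given in CPM, the count scaled to a common library size after TMM normalization, and between genes only as CPM per kilobase of exon. All 12 erythroid marker genes of K562 were detected in each group, and GATA1, the erythroid master regulator, averaged 196 to 250 CPM. The summed erythroid markers were 6279 to 8721 CPM in K562, 4268 to 4890 in K562+L, 3003 to 3252 in K562/IM and 33650 to 47062 in the libraries with the label K562/IM+L. Of 13 lymphoid and myeloid markers, 4, 3, 1 and 4 were at 0 in those groups in the same order, and of 12 receptor genes of natural killer cells 6, 5, 3 and 5 were at 0. The first list summed to 112 to 118, 109 to 129, 196 to 204 and 77.1 to 82.3 CPM, and the second to 5.51 to 7.67, 4.68 to 6.81, 13.2 to 14.1 and 11.6 to 16.3 CPM. Most of the first sum was the single gene LYZ in K562 (mean 111 CPM), K562+L (120) and the libraries with the label K562/IM+L (78.1). KLRK1, which encodes NKG2D itself, had means of 0 to 0.0666 CPM. ABCB1, the drug efflux pump P-gp, averaged 23.6 CPM in K562/IM and stood at 0.705, 0.488 and 1.06 CPM in the libraries with the label K562/IM+L, below its mean of 1.76 CPM in K562. The group is therefore named by its label throughout, and each direction drawn from it rests on that label. Small counts were not evenly spread, since 67.9% of the 23289 values between 1 and 25 were divisible by 4 or exceeded such a number by 1, which holds for 52% of those integers.

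The MIC, ULBP and BAG6 genes lie on chromosome 6 of GRCh38, by GENCODE 29. MICA (31399784 to 31415315, plus strand), MICB (31494881 to 31511124, plus strand) and BAG6 (31639028 to 31652705, minus strand) sit in the HLA region, and ULBP2 (149942000 to 149949235), ULBP1 (149964007 to 149973710), both on the plus strand, and ULBP3 (150063150 to 150069095, minus strand) sit together on the long arm. PVR (44643798 to 44663583) and NECTIN2 (44846175 to 44889228) lie on chromosome 19 and NCR3LG1 (17351726 to 17377341) on chromosome 11, all on the plus strand. ULBP2 is the member most exposed to shared reads: 20.6% of the 75-base words of its transcripts also occur in another gene, 18.6% in RAET1L and 5.49% in RAET1G. The share was 9.41% for ULBP3, 3.16% for ULBP1, 1.29% for PVR and 0.521% for NECTIN2, and 0 for MICA, MICB, NCR3LG1 and BAG6. Exons of PVR overlap those of CEACAM19 on the same strand, exons of MICA overlap the transcript HCP5 on the same strand, and exons of BAG6 and NECTIN2 overlap APOM and an antisense transcript on the other strand. How reads in shared stretches were counted, and whether strand was used, is not given in the sources used here.

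The 4 NKG2D ligand genes with counts are 2 neighbouring pairs whose members moved differently, so the sequence just before each RefSeq start (GRCh38.p14, plus strand, 5′ to 3′) is shown, cut short in MICA, MICB and ULBP2 where an exon of GENCODE 29 begins. Capitals mark matches, on either strand, to the heat shock element GAANNTTC, the GC box GGGCGG and CCAAT in MICA and MICB, to the GC box in ULBP1, and to the GC box, CCAAT and the E2F type TTTNNCGC in ULBP2.
MICA, chr6:31403345-31403578: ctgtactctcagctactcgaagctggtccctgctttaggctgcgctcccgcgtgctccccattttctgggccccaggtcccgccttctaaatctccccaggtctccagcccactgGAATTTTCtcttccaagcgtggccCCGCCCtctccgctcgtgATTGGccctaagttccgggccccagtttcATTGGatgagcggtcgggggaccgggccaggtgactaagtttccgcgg
MICB, chr6:31497895-31498085: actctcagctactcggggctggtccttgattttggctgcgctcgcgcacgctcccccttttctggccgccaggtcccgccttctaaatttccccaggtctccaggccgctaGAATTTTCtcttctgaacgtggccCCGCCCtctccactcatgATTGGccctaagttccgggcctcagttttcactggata
ULBP1, chr6:149963693-149963942: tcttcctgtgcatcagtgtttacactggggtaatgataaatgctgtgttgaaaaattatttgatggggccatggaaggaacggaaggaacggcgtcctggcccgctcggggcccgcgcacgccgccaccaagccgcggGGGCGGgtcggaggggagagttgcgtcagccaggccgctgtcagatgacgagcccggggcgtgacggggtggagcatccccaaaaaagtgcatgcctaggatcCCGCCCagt
ULBP2, chr6:149941764-149941999: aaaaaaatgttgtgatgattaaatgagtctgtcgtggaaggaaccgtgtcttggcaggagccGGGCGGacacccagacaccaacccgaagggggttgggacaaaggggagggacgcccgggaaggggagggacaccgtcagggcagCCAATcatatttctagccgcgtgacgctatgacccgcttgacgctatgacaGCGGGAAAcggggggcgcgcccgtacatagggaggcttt

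The 250 bases before the start of MICA and of MICB aligned with 82.7% identity, 210 of 254 aligned columns, whereas those of ULBP1 and ULBP2 aligned with 45.97%. The heat shock element began 135 bases before the start of MICA and 139 before that of MICB, and was found in 6.77% of the 35116 RefSeq windows of 300 bases. The GC box occurred in 45.0% of those windows and CCAAT in 34.6%. MICA held 2 CCAAT matches and MICB held 1. The E2F type, which 6.89% of windows held, began 53 bases before the start of ULBP2, and that window also held AP-1 (TGANTCA, in 7.71% of windows) 2 bases before the start and the ATF4 and C/EBP type (TGATGNAA, in 3.62%) after it. Of the other members, NECTIN2 held the CRE (TGACGTCA, in 1.85% of windows), the E2F type and 3 GC boxes, ULBP3 held AP-1 and 6 GC boxes, NCR3LG1 held 2 GC boxes, BAG6 held 1 GC box in 1 of its 2 windows, and PVR held none of the motifs searched. The E-box CACGTG, in 7.26% of windows, was in none of the members' windows. These are matches of letters in a window and were not tested for binding.

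Per kilobase of exon, BAG6 was the most abundant member in all 4 groups, with 76.1 ± 4.57 CPM per kilobase (SD, n = 3) in K562. NECTIN2 followed there with 33.3 ± 4.62, MICB with 16.6 ± 0.518, NCR3LG1 with 12.3 ± 5.71, MICA with 8.41 ± 0.985, PVR with 7.21 ± 0.215, ULBP2 with 3.25 ± 0.239 and ULBP1 with 3.01 ± 0.121. NCR3LG1 changed its place most, from rank 4 of the 9 members in K562 to 2 in K562+L, 3 in K562/IM and 7 in the libraries with the label K562/IM+L. ULBP3 had 8 counts in K562 replicate 1, or 0.0983 CPM, and 0 in every other library, where a count of 0 allows up to 0.0280 to 0.0419 CPM, the level of 3 counts, for counting error only. It was below the filter and was not tested.

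**Figure D1:**
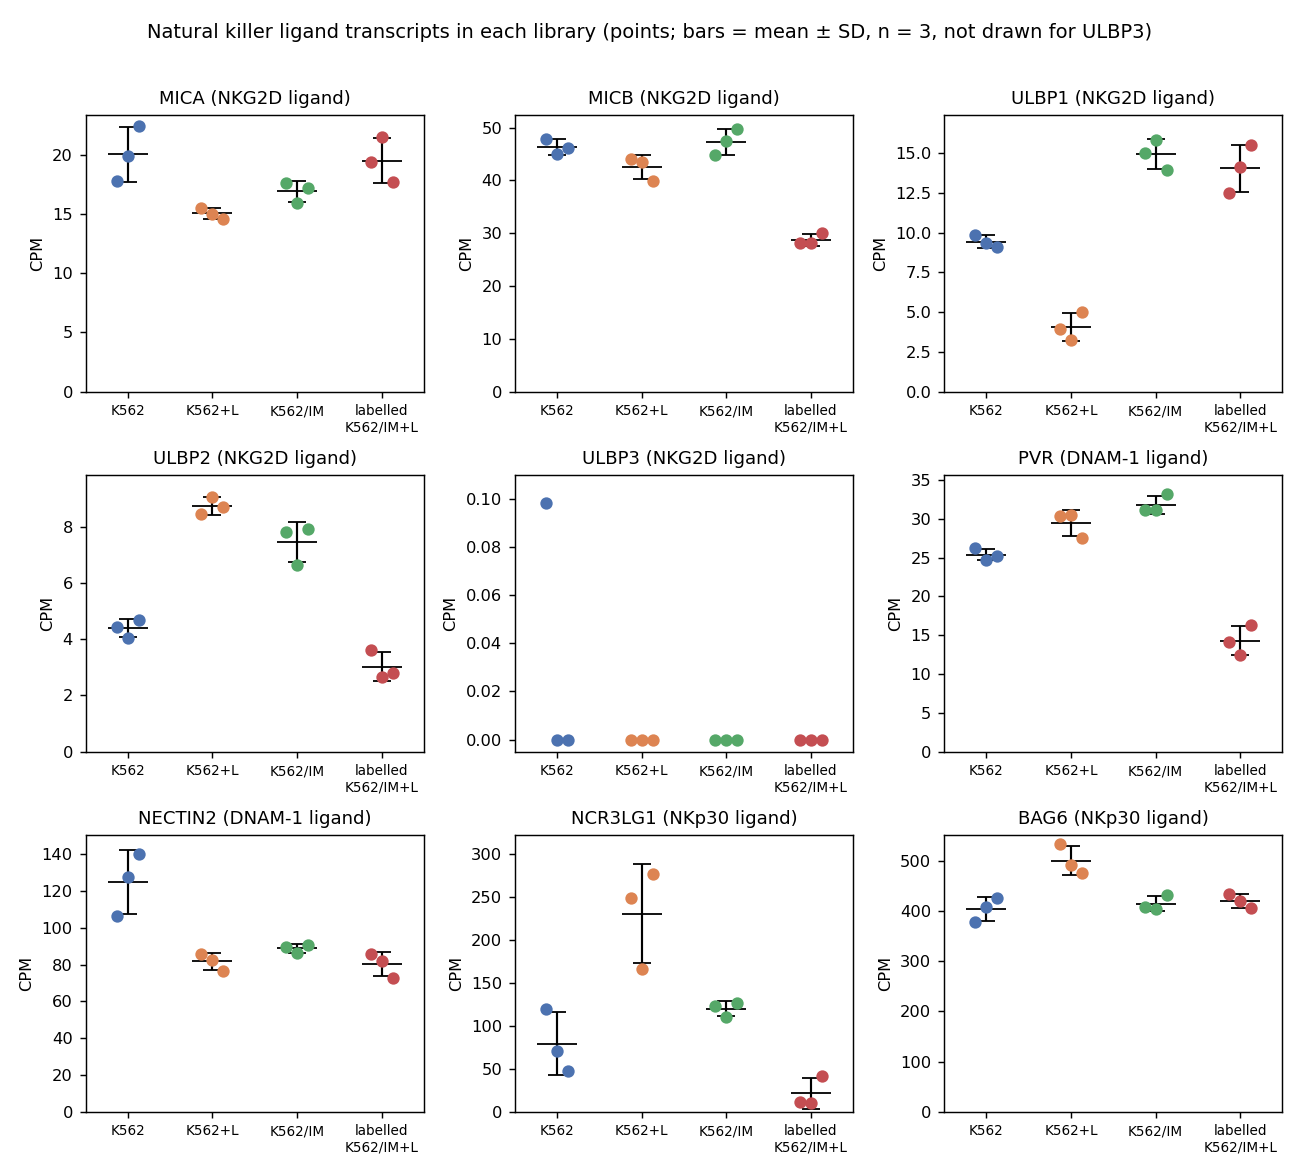
CPM of the 9 ligand transcripts in each library, grouped by line and treatment; points are libraries and bars the mean ± SD of 3, not drawn for ULBP3. ULBP1 was lowest in K562+L, whereas ULBP2 and NCR3LG1 were highest there, and MICB, ULBP2, PVR and NCR3LG1 were lowest in the libraries with the label K562/IM+L.

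Between K562+L and K562, lycorine went with opposite movements of the members. ULBP2, NCR3LG1 and BAG6 rose and MICA, ULBP1 and NECTIN2 fell at an adjusted p under 0.05 in edgeR's quasi-likelihood test, while MICB and PVR did not pass. These were 6 of the 8 members tested, where 37.3% of the 12927 genes tested passed, 18.2% higher and 19.0% lower. With a log2 fold change over 1 as well, ULBP1 and NCR3LG1 passed, against 6.39% of all genes. The libraries of the 2 groups did not overlap for any of the 8, against 51.5% of all genes, and the median log2 fold change was 0.04 over the members and -0.00012 over all genes. Of the 12 erythroid markers 7 fell and 0 rose, and their part in the differences was not tested.

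Between K562/IM and K562, the 2 ULBP transcripts and PVR rose and NECTIN2 fell in the resistant line, while MICA, MICB, NCR3LG1 and BAG6 did not pass. That is 4 of 8, where 57.1% of 13406 genes passed, 30.1% higher and 27.1% lower, and none of the members passed the fold of 2 that 19.1% of genes passed. The groups did not overlap for 5 members, against 66.6% of genes. The members' median was 0.18, against 0.04 over all genes. Across this comparison 6 of the 7 tested lymphoid and myeloid markers and 4 of the 5 tested receptor genes of natural killer cells also rose. Of the 12 erythroid markers 8 fell and 1 rose. The part of these lists in the differences was not tested.

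Between the libraries with the label K562/IM+L and K562/IM, MICB, ULBP2, PVR and NCR3LG1 fell and no member rose, while MICA, ULBP1, NECTIN2 and BAG6 did not pass. That is 4 of 8, where 66.8% of 13727 genes passed, 33.2% higher and 33.6% lower, and 3 of the falls, in ULBP2, PVR and NCR3LG1, were over a log2 of 1, against 28.5% of genes. The groups did not overlap for 6 members, against 73.4% of genes. The members' median was -0.41, against -0.01 over all genes. The erythroid marker sum also rose across this comparison, with all 12 genes of that list higher. Of the 8 lymphoid and myeloid markers tested 5 fell and 0 rose (median -1.13), and PRF1, which encodes perforin, went from a mean of 7.70 CPM to 0 in all 3 libraries. Of the 5 receptor genes of natural killer cells tested, 2 rose and 2 fell. The part of these lists in the members' differences was not tested.

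Set against K562 instead, the libraries with the label K562/IM+L had more ULBP1 and less MICB, ULBP2, PVR, NECTIN2 and NCR3LG1, 6 of 8 members where 56.0% of 13307 genes passed, 28.2% higher and 27.8% lower. NCR3LG1 alone was over a log2 of 1, which 23.8% of genes were. The groups did not overlap for 6 members, against 63.6% of genes. The comparisons share libraries with one another, so their values are set side by side for each member and not counted as agreement. In a bulk library, fewer cells with a transcript and less of it per cell cannot be told apart.

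**Figure D2:**
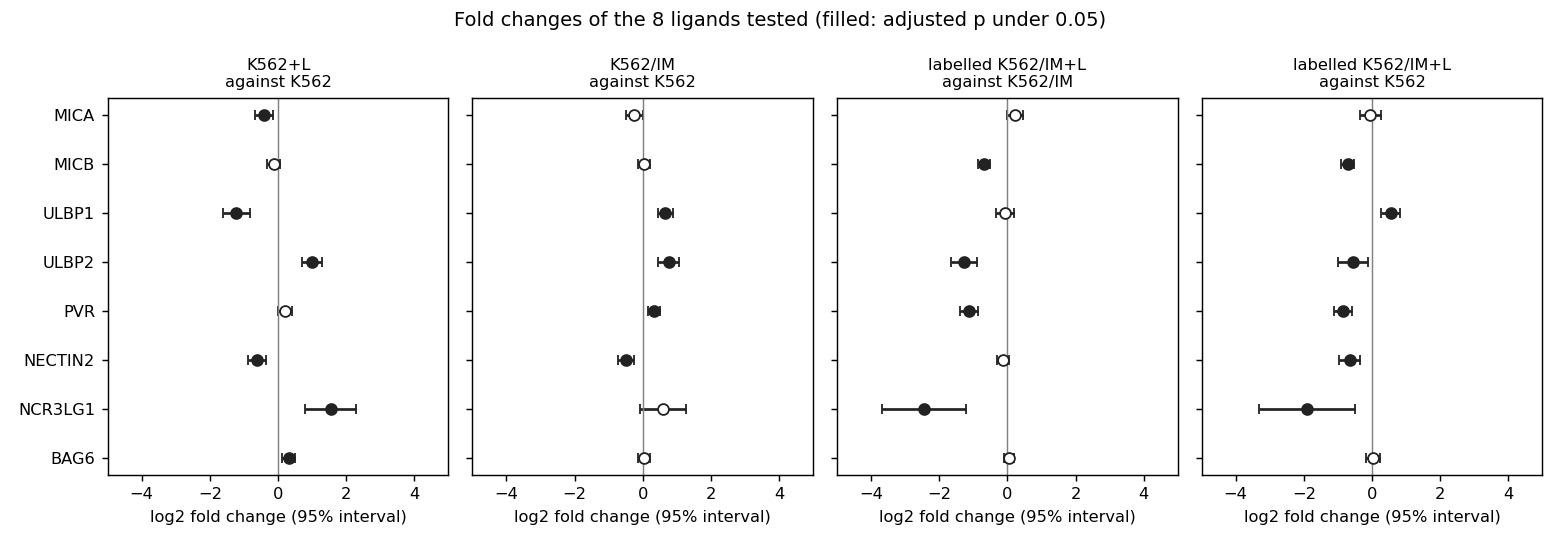
Fitted log2 fold change of the 8 ligands tested in 4 comparisons, with 95% intervals; filled points passed an adjusted p under 0.05. ULBP2 lay at 0.99 in K562+L against K562 and at -1.28 in the libraries with the label K562/IM+L against K562/IM.

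Among the NKG2D ligands, ULBP1, a lipid-anchored member of the family, had the widest range of group means, 3.69 times between the highest and the lowest. In K562 it stood at 9.87, 9.36 and 9.12 CPM (9.45 ± 0.381, SD, n = 3) and in K562+L at 3.93, 3.24 and 4.98 CPM (4.05 ± 0.875). In K562/IM it stood at 15.1, 15.9 and 14.0 CPM (15.0 ± 0.950) and in the libraries with the label K562/IM+L at 12.5, 14.2 and 15.5 CPM (14.1 ± 1.501). All K562+L libraries were thus below all K562 libraries. K562/IM and the libraries with the label K562/IM+L were above them, and those 2 groups overlapped. ULBP1 fell 2.33-fold with lycorine in K562 (log2 fold change -1.22, SE 0.17, edgeR adjusted p = 0.00185) and was 1.58-fold higher in K562/IM than in K562 (0.66, SE 0.09, edgeR adjusted p = 7.17e-04). Between the libraries with the label K562/IM+L and K562/IM the log2 difference was -0.06, with a 95% interval of -0.32 to 0.20 (edgeR adjusted p = 0.645), and against K562 those libraries were higher by 0.55 (SE 0.12, edgeR adjusted p = 0.00602).

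ULBP2, its neighbour on chromosome 6, took the other direction with lycorine in K562. It measured 4.42, 4.04 and 4.68 CPM in K562 (4.38 ± 0.323) and 8.44, 9.05 and 8.69 CPM in K562+L (8.73 ± 0.308). In K562/IM it measured 7.79, 6.63 and 7.91 CPM (7.45 ± 0.709), and in the libraries with the label K562/IM+L 3.60, 2.64 and 2.81 CPM (3.01 ± 0.513). No library of K562+L or K562/IM came down to the K562 level, and all 3 libraries with the label K562/IM+L were below it. ULBP2 rose 1.99-fold with lycorine in K562 (log2 0.99, SE 0.12, edgeR adjusted p = 0.00118) and was 1.70-fold higher in K562/IM than in K562 (0.76, SE 0.13, edgeR adjusted p = 0.00181). It was 2.43-fold lower in the libraries with the label K562/IM+L than in K562/IM (-1.28, SE 0.17, edgeR adjusted p = 3.44e-04). Their difference from K562, -0.56 (SE 0.18, edgeR adjusted p = 0.0332), lost its call when any of 5 single libraries was left out, namely any K562 library or replicate 2 or 3 of those labelled K562/IM+L, with adjusted p of 0.0565 to 0.0951, and under upper-quartile normalization (-0.41, adjusted p = 0.0914).

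MICB, a transmembrane ligand and the most abundant NKG2D ligand per kilobase, had its lowest values in the libraries with the label K562/IM+L. It stood at 47.9, 45.0 and 46.2 CPM in K562 (46.4 ± 1.45) and at 44.0, 43.6 and 40.0 CPM in K562+L (42.5 ± 2.22). In K562/IM the values were 44.8, 47.6 and 49.7 CPM (47.4 ± 2.44), and in the libraries with the label K562/IM+L 28.2, 28.1 and 30.0 CPM (28.8 ± 1.11). The last 3 were below all other libraries, and the K562+L libraries were also below those of K562. MICB fell 1.62-fold there against K562/IM (log2 -0.69, SE 0.07, edgeR adjusted p = 1.36e-04) and 1.63-fold against K562 (-0.71, SE 0.08, edgeR adjusted p = 3.14e-04). With lycorine in K562 the log2 difference was -0.13, with a 95% interval of -0.32 to 0.07 (edgeR adjusted p = 0.269), and between K562/IM and K562 it was 0.03, with an interval of -0.14 to 0.20 (edgeR adjusted p = 0.751).

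MICA, the closest relative of MICB, varied least among the NKG2D ligands, by 1.33 times between group means. It stood at 17.8, 19.9 and 22.5 CPM in K562 (20.1 ± 2.35) and at 15.5, 15.1 and 14.6 CPM in K562+L (15.1 ± 0.451). In K562/IM it stood at 17.6, 15.9 and 17.2 CPM (16.9 ± 0.879), and in the libraries with the label K562/IM+L at 19.4, 21.5 and 17.7 CPM (19.5 ± 1.88). All libraries of K562+L and K562/IM lay below all of K562, by little in K562/IM, and the libraries with the label K562/IM+L overlapped those of K562. MICA fell 1.33-fold with lycorine in K562 (log2 -0.41, SE 0.11, edgeR adjusted p = 0.0209). That call was lost when any library except K562 replicate 1 was left out, with adjusted p of 0.0532 to 0.0730. The log2 difference was -0.24 in K562/IM against K562 (edgeR adjusted p = 0.0839), 0.23 in the libraries with the label K562/IM+L against K562/IM (edgeR adjusted p = 0.0723) and -0.06 in those libraries against K562 (edgeR adjusted p = 0.735). The first of these passed without K562 replicate 1 (-0.36, adjusted p = 0.0111), and the second passed without replicate 3 of the libraries with the label K562/IM+L (0.30, adjusted p = 0.0169) and under upper-quartile normalization (0.29, adjusted p = 0.0382).

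**Figure D3:**
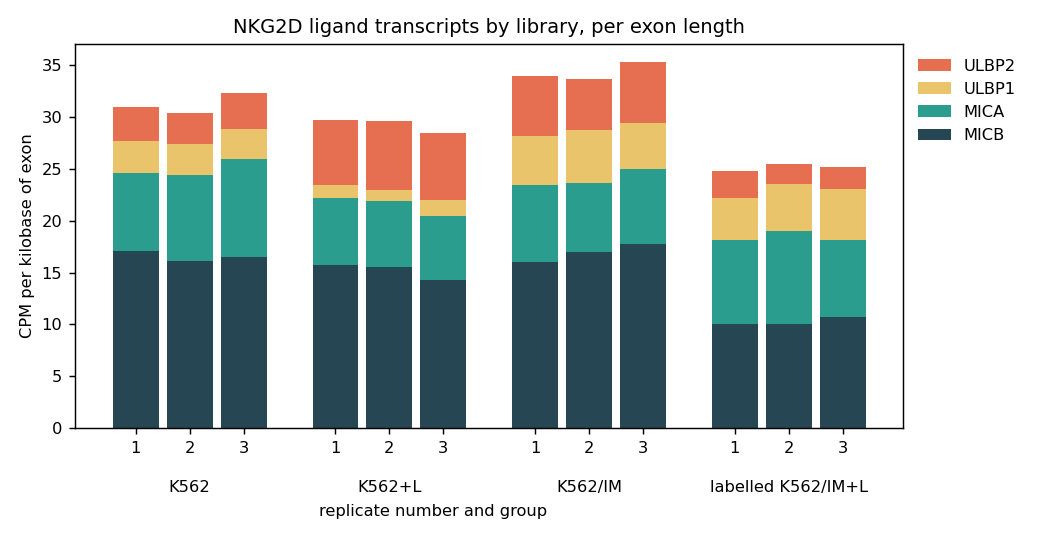
CPM per kilobase of exon of 4 NKG2D ligand transcripts stacked for each library, with ULBP3 left out because it was near 0. ULBP2 took 22.1% of the sum in K562+L and 8.89% in the libraries with the label K562/IM+L, and ULBP1 4.42% and 17.8%.

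Summed per kilobase, the NKG2D ligands came to 30.4 to 32.3 CPM per kilobase in K562, 28.4 to 29.7 in K562+L, 33.6 to 35.3 in K562/IM and 24.8 to 25.5 in the libraries with the label K562/IM+L, and these 4 ranges did not overlap. MICB made up the largest share throughout, on average 53.0% in K562, 51.9% in K562+L, 49.3% in K562/IM and 40.8% in the libraries with the label K562/IM+L. The mean share of ULBP2 was 10.4% in K562 and 22.1% in K562+L, while that of ULBP1 was 9.63% and 4.42%. In K562/IM both ULBP shares were above those of K562, at 16.1% for ULBP2 and 13.9% for ULBP1. In the libraries with the label K562/IM+L they parted again, to 8.89% and 17.8%. The share of MICA was 26.9%, 21.6%, 20.7% and 32.5% in the 4 groups in the same order. These shares are a description of levels and were not tested.

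Of the DNAM-1 ligands, PVR (CD155), the poliovirus receptor, stood at 26.2, 24.7 and 25.2 CPM in K562 (25.4 ± 0.758) and at 30.3, 30.4 and 27.5 CPM in K562+L (29.4 ± 1.65). In K562/IM it stood at 31.1, 31.1 and 33.1 CPM (31.8 ± 1.19), and in the libraries with the label K562/IM+L at 14.1, 12.5 and 16.3 CPM (14.3 ± 1.90). All libraries of K562+L and K562/IM were above those of K562, and the 3 labelled K562/IM+L were below all others. PVR was 1.25-fold higher in K562/IM than in K562 (log2 0.32, SE 0.07, edgeR adjusted p = 0.00681), and the lycorine difference in K562 was 0.21, with a 95% interval of 0.01 to 0.41 (edgeR adjusted p = 0.0917). In the libraries with the label K562/IM+L it was 2.18-fold lower than in K562/IM (-1.12, SE 0.11, edgeR adjusted p = 9.63e-05) and 1.80-fold lower than in K562 (-0.85, SE 0.12, edgeR adjusted p = 7.40e-04).

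NECTIN2 (CD112), the second DNAM-1 ligand, was highest in K562. It stood there at 106, 128 and 140 CPM (125 ± 17.3), and in K562+L at 85.9, 82.7 and 76.8 CPM (81.8 ± 4.66). In K562/IM the values were 89.6, 86.3 and 90.7 CPM (88.9 ± 2.32), and in the libraries with the label K562/IM+L 85.8, 82.1 and 72.8 CPM (80.2 ± 6.68). The 3 K562 libraries were above the 9 others, which lay close together. NECTIN2 fell 1.53-fold with lycorine in K562 (log2 -0.61, SE 0.12, edgeR adjusted p = 0.00612) and was 1.41-fold lower in K562/IM than in K562 (-0.49, SE 0.11, edgeR adjusted p = 0.00510). It was also lower in the libraries with the label K562/IM+L than in K562 (-0.66, SE 0.13, edgeR adjusted p = 0.00395), whereas their difference from K562/IM was -0.12, with a 95% interval of -0.30 to 0.06 (edgeR adjusted p = 0.201). In K562/IM against K562 the DNAM-1 ligands thus moved in opposite directions.

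Of the NKp30 ligands, NCR3LG1 (B7-H6), a surface protein of the B7 family, had the widest range of all members and the widest spread between replicates. It stood at 119, 70.4 and 47.3 CPM in K562 (79.0 ± 36.8) and at 249, 166 and 276 CPM in K562+L (230.3 ± 57.5). In K562/IM it stood at 123, 110.4 and 127 CPM (120.04 ± 8.51), and in the libraries with the label K562/IM+L at 11.7, 10.3 and 42.0 CPM (21.3 ± 17.9). All K562+L libraries were above all others and the 3 labelled K562/IM+L below all others, whereas K562 and K562/IM overlapped through K562 replicate 1. Group means differed by up to 10.8 times, and libraries within a group by up to 2.52 times in K562 and 4.08 times among those labelled K562/IM+L. NCR3LG1 rose 2.91-fold with lycorine in K562 (log2 1.54, SE 0.33, edgeR adjusted p = 0.00925) and was 5.49-fold lower in the libraries with the label K562/IM+L than in K562/IM (-2.46, SE 0.53, edgeR adjusted p = 0.00433). Replicate 3 of the latter group weighed on that value, which was -3.42 without it (adjusted p = 4.33e-07). Between K562/IM and K562 the difference was 0.60 (SE 0.29, edgeR adjusted p = 0.111), and 1.00 without K562 replicate 1 (adjusted p = 8.94e-04). The libraries with the label K562/IM+L were below K562 by a log2 of 1.91 in size (-1.91, SE 0.60, edgeR adjusted p = 0.0285). That call was lost without K562 replicate 1 or 2, or without replicate 1 or 2 of the libraries with the label K562/IM+L (adjusted p of 0.0541 to 0.0840), and the value was -2.85 without replicate 3 of the latter (adjusted p = 0.00170).

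BAG6, the chaperone, varied by 1.24 times between group means, the least of the members tested. It stood at 378, 409 and 426 CPM in K562 (404 ± 24.2) and at 533, 492 and 476 CPM in K562+L (500.5 ± 29.3). In K562/IM it stood at 409, 404 and 431 CPM (415 ± 14.4), and in the libraries with the label K562/IM+L at 434, 419.7 and 405 CPM (419.5 ± 14.2). The K562+L libraries were above all others, and the 3 remaining groups overlapped. BAG6 rose 1.24-fold with lycorine in K562 (log2 0.31, SE 0.08, edgeR adjusted p = 0.0221). That call was lost when K562 replicate 2, K562+L replicate 1 or K562+L replicate 2 was left out, with adjusted p of 0.0552 to 0.0814. The differences of 0.04 between K562/IM and K562 (edgeR adjusted p = 0.685) and 0.04 between the libraries with the label K562/IM+L and K562/IM (edgeR adjusted p = 0.573) did not pass.

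Ordered by level, neighbouring groups often did not differ beyond their spread. In the pairs not yet described, K562/IM against K562+L and the libraries with the label K562/IM+L against K562+L, 66.9% and 67.2% of genes passed. For ULBP1 the order was K562/IM, the libraries with the label K562/IM+L, K562 and K562+L, and all steps but the first passed edgeR's test. For ULBP2 it was K562+L, K562/IM, K562 and the libraries with the label K562/IM+L, again with all steps but the first, which had an adjusted p of 0.108. For NCR3LG1 the order was the same, and the first step (K562+L over K562/IM, log2 0.93, edgeR adjusted p = 0.00103) and the last passed. In MICB and PVR the last step alone passed, down to the libraries with the label K562/IM+L, from K562+L in MICB (edgeR adjusted p = 4.60e-04) and from K562 in PVR. In NECTIN2 and BAG6 the first step alone passed, from K562 to K562/IM in NECTIN2 and from K562+L to the libraries with the label K562/IM+L in BAG6 (edgeR adjusted p = 0.0107). No neighbouring groups of MICA differed beyond their spread.

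The lycorine difference was compared between the lines as an interaction over all 12 libraries, taken as the difference in K562/IM as labelled minus that in K562. It passed for all 8 members tested, where 61.7% of 13995 genes passed. ULBP2, PVR and NCR3LG1 had positive differences in K562, of 0.99, 0.21 and 1.54, and negative ones in K562/IM as labelled, of -1.28, -1.12 and -2.46. ULBP1 and NECTIN2 were lower with lycorine in K562, by log2 values of -1.22 and -0.61, and near 0 in K562/IM as labelled, at -0.06 and -0.12. MICB was the reverse, at -0.13 and -0.69. MICA lay at -0.41 and 0.23, and BAG6 at 0.31 and 0.04. Because the interaction contains the libraries with the label K562/IM+L, it rests on their label in the same way, and the erythroid marker sum moved down in K562+L and up in those libraries.

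**Figure D4:**
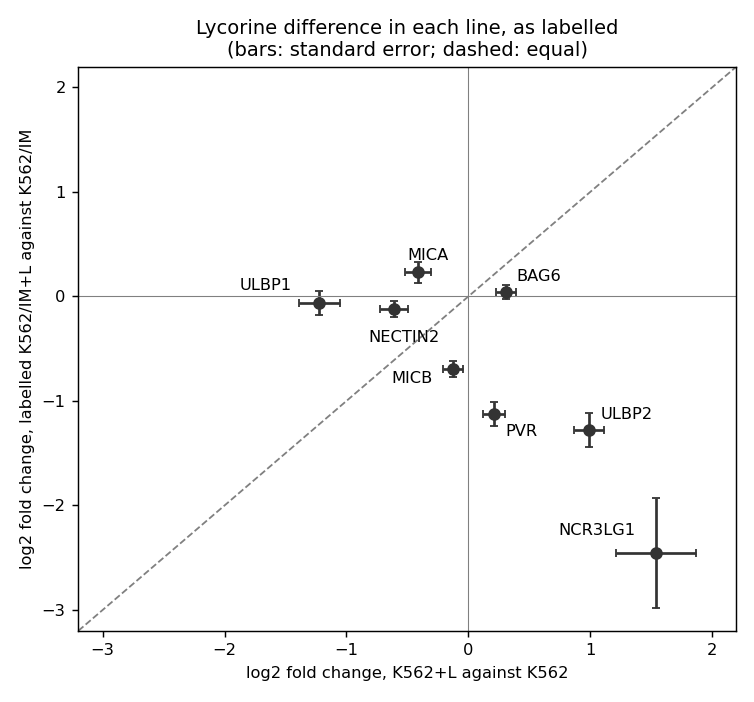
Log2 fold change with lycorine in K562 (horizontal) against that in K562/IM as labelled (vertical) for the 8 ligands, with standard errors; the dashed line marks equal values. NCR3LG1 (1.54 and -2.46), ULBP2 (0.99 and -1.28) and PVR (0.21 and -1.12) lie in the lower right.

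The genes whose profiles over the 12 libraries were most like a member were taken as those with the smallest root mean square difference of centred log2 CPM. For BAG6 these were KIFC1 (0.0427), ELL and RETSAT, for NECTIN2 APEH (0.0513), SNRPA and THAP11, and for MICB GINS4 (0.0750), KDSR and TRAF3. For PVR they were ARF3 (0.0854), HASPIN and KCTD10. For ULBP2 they were DIAPH3 (0.175), DENND5A and TNFAIP3, and for ULBP1 HFM1 (0.192), GIPR and CADM4. NCR3LG1 had KIAA0754 (0.302), ANKRD33B and OR51I2. This difference grows with a gene's own spread, so it does not rank the matches of different members. Their own profiles had SDs of 0.134 for BAG6, 0.274 for NECTIN2, 0.295 for MICB and 0.463 for PVR. Those of ULBP2, ULBP1 and NCR3LG1 were 0.624, 0.771 and 1.48. Among the members themselves, the smallest differences were those of MICB and PVR (0.211) and of MICA and NECTIN2 (0.222). MICA's own SD was 0.190, so the latter value does not show a shared profile. ULBP1 and ULBP2 differed by 1.23, and ULBP1 and NCR3LG1 by 2.01.

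The 3 nearest tested genes on each side of a member were counted in the same comparisons, and some of the counts are given here without a test. They do not show how members in general relate to their neighbours. With lycorine in K562, 18.2% of all genes rose and 19.0% fell. Among the 6 nearest to ULBP2, 0 rose and 1 fell with lycorine in K562, the latter being ULBP1. Among the 6 nearest to NCR3LG1, 0 rose and 3 fell there, where NCR3LG1 rose. Among the 6 nearest to PVR, 4 rose and 0 fell in the libraries with the label K562/IM+L against K562/IM, where PVR fell, and 6 rose against K562. The shares of all genes that rose in these comparisons were 33.2% and 28.2%. Against K562/IM, where MICB fell in those libraries, 1 of its 6 nearest rose and 3 fell, and 33.6% of all genes fell. Among the 6 nearest to NECTIN2, 0 rose and 4 fell with lycorine in K562, in the direction of NECTIN2. In the libraries with the label K562/IM+L against K562, where NECTIN2 fell, 5 of them rose and 1 fell. CEACAM19, BCL3 and BCAM were counted for both PVR and NECTIN2, so these counts are not separate.

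The other genes that shape how a natural killer cell sees a target were taken from lists. Of the other ligands of NKG2D, RAET1E, RAET1G and RAET1L summed to at most 0.488 CPM in any library, and 1 was tested and did not pass. NECTIN1, NECTIN3 and NECTIN4 summed to at most 0.355 CPM. With lycorine in K562, 0 of 10 genes of death receptors and granule killing rose and 5 fell, with a median log2 fold change of -0.39. That list mixes genes that promote killing with inhibitors of it, CFLAR, XIAP and SERPINB9. Its counts and medians, here and below, thus give no direction of killing. SERPINB9, the inhibitor of granzyme B, fell most clearly, from 69.7 to 28.1 CPM (log2 -1.31, SE 0.09, edgeR adjusted p = 1.50e-04). Of 8 inhibitory ligands tested, 0 rose and 4 fell (median -0.49), among them CLEC2D, the ligand of the inhibitory receptor CD161 (-2.32, SE 0.34, edgeR adjusted p = 0.00234). Of 8 adhesion and costimulatory ligands, 1 rose and 3 fell. Over all genes tested in K562+L against K562, 18.2% rose and 19.0% fell, and no list was tested against such shares.

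In K562/IM against K562, 5 of 9 inhibitory ligands rose and 1 fell (median log2 fold change 0.81). HLA-E, the ligand of the inhibitory receptor NKG2A, rose from 30.3 to 128 CPM (2.08, SE 0.10, edgeR adjusted p = 3.15e-06). HLA-C, named after its values were seen, also rose (3.03, SE 0.17, edgeR adjusted p = 7.31e-06), from a mean of only 1.03 CPM in K562. The genes of this family are alike and variable in sequence, so that reads may be shared among them. Of the death receptor and granule killing genes 5 rose and 1 fell (median 0.52), and TNFRSF10B, a TRAIL receptor, went from 20.5 to 56.1 CPM (1.45, SE 0.09, edgeR adjusted p = 9.88e-06). Of 9 adhesion and costimulatory ligands 5 rose and 0 fell, with CLEC2B, the ligand of NKp80, rising by 1.62 (SE 0.12, edgeR adjusted p = 2.29e-05). Over all genes tested here, 30.1% rose and 27.1% fell.

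In the libraries with the label K562/IM+L against K562/IM, 7 of the 10 death receptor and granule killing genes fell and 0 rose (median -1.34). TNFRSF10B stood at 3.03 CPM there (-4.18, SE 0.13, edgeR adjusted p = 4.54e-07). HLA-E fell to 24.5 CPM (-2.36, SE 0.08, edgeR adjusted p = 5.75e-07), one of 5 falls and 2 rises among 10 inhibitory ligands (median -0.75). CLEC2D was one of the rises (1.64, SE 0.11, edgeR adjusted p = 1.09e-05). Of 9 adhesion and costimulatory ligands 6 fell and 3 rose. Over all genes tested in this comparison, 33.2% rose and 33.6% fell. SLAMF6, an adhesion receptor that binds itself, fell by 5.13 on the log2 scale, and CD70, the ligand of CD27, rose by 1.99 (edgeR adjusted p = 8.05e-06 and 6.88e-05).

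**Figure D5:**
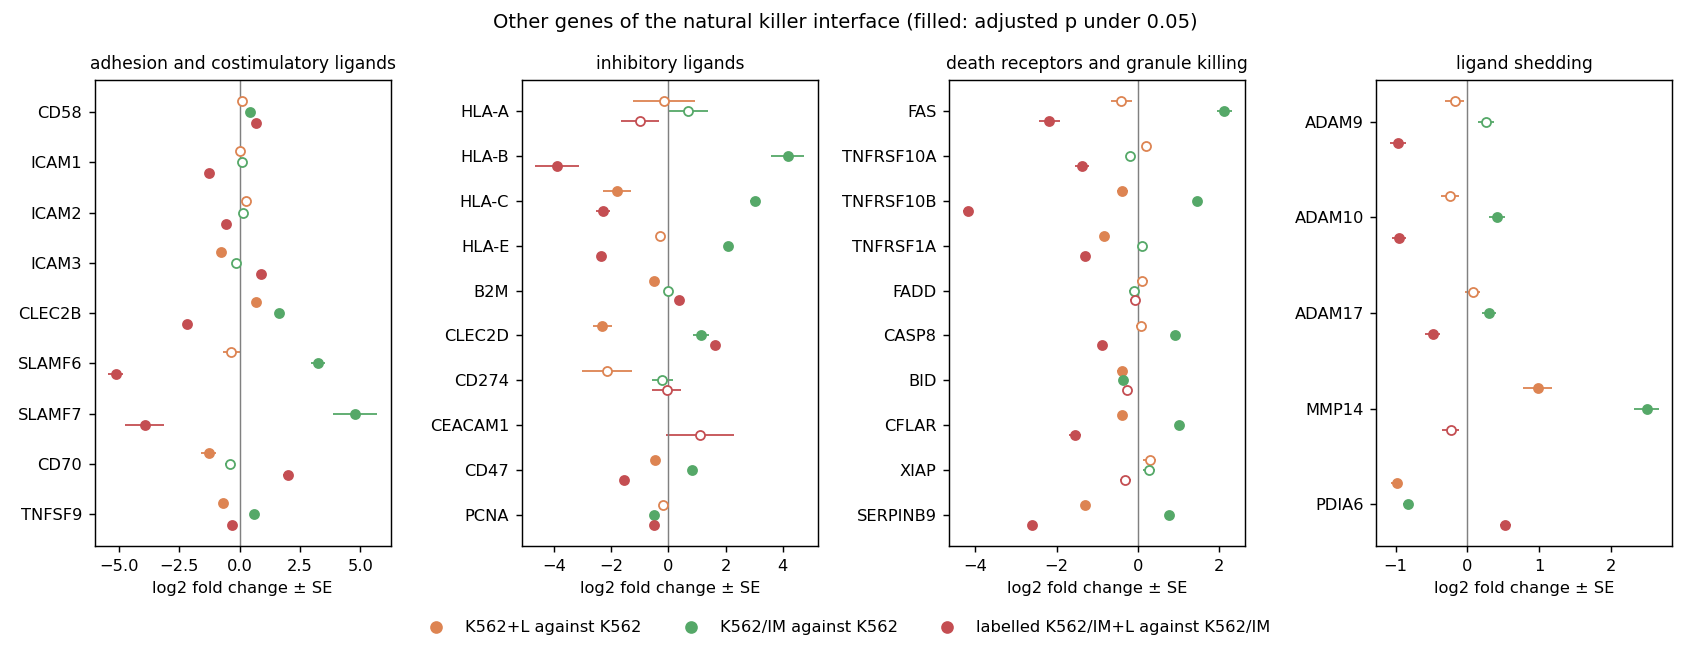
Fitted log2 fold changes with standard errors of the tested genes in 4 lists around the ligands, in 3 comparisons by colour; filled points passed an adjusted p under 0.05. TNFRSF10B lay at 1.45 in K562/IM against K562 and at -4.18 in the libraries with the label K562/IM+L against K562/IM, and HLA-E at 2.08 and -2.36.

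Genes that act on the ligands themselves were counted in the same way. Over all genes, 18.2% rose and 19.0% fell with lycorine in K562, and 30.1% and 27.1% in K562/IM against K562. The shares were 33.2% and 33.6% in the libraries with the label K562/IM+L against K562/IM. Of 5 tested genes of ligand shedding, with which MIC and ULBP proteins are cut from the surface, 1 rose and 1 fell with lycorine in K562, 3 rose and 1 fell in K562/IM, and 1 rose and 3 fell in the libraries with the label K562/IM+L against K562/IM. MMP14, a membrane metalloprotease, rose by 0.98 and 2.50 in the first and second of these (edgeR adjusted p = 0.00754 and 2.03e-05), and ADAM10 fell by 0.95 on the log2 scale in the last (edgeR adjusted p = 1.11e-04). PDIA6, the disulfide isomerase that assists the shedding of MICA, fell by 0.99 on the log2 scale with lycorine in K562 and by 0.83 in K562/IM against K562 (edgeR adjusted p = 1.73e-04 and 2.62e-05), and was the gene that rose in the last comparison, by 0.53 (edgeR adjusted p = 4.76e-04).

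Of 16 regulators of NKG2D ligand transcripts, 2 rose and 3 fell with lycorine in K562, 0 rose and 6 fell in K562/IM against K562, and 5 rose and 5 fell in the libraries with the label K562/IM+L against K562/IM. Over all genes, 18.2% rose and 19.0% fell in the first of these comparisons, and 30.1% and 27.1% in the second. The shares were 33.2% and 33.6% in the last. ATF4, a stress transcription factor known to act on ULBP1, fell with lycorine in K562 from 486 to 305 CPM (log2 -0.67, SE 0.09, edgeR adjusted p = 0.00138), where ULBP1 also fell. ATF4 was lower in K562/IM than in K562 as well, at 405 CPM (-0.26, SE 0.07, edgeR adjusted p = 0.0161), where ULBP1 was higher. The ULBP1 window held no exact match to the ATF4 and C/EBP type, a search of letters that cannot tell whether ATF4 acts there. CHEK1, a kinase of the DNA damage response, rose by 0.48 with lycorine in K562 (edgeR adjusted p = 0.00303). ATR, at the head of the same response, fell by 1.55 on the log2 scale in the libraries with the label K562/IM+L against K562/IM (edgeR adjusted p = 9.09e-05), and HDAC3 rose by 0.93 (edgeR adjusted p = 4.67e-05). Whether any of these bears on the ligands was not tested.

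Of 7 partners of BAG6 in its chaperone complex, 0 rose and 2 fell with lycorine in K562, where BAG6 rose. UBL4A, which forms the complex with BAG6 and GET4, fell by 0.65 on the log2 scale (SE 0.12, edgeR adjusted p = 0.00556). In K562/IM against K562, 6 of the 7 fell and 0 rose, GET4 by 0.78 on the log2 scale (SE 0.12, edgeR adjusted p = 8.92e-04), while BAG6 differed by 0.04. In the libraries with the label K562/IM+L against K562/IM, 4 rose and 0 fell, with GET4 rising by 1.10 (SE 0.10, edgeR adjusted p = 6.69e-05). Over all genes, 18.2% rose and 19.0% fell in the first of these comparisons, and 30.1% and 27.1% in the second. The shares were 33.2% and 33.6% in the last.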

How the data were processed

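The table deposited by the authors holds raw counts, 1 for each symbol in each of 12 libraries. The submitters' processing notes name FastQC, STAR, StringTie and DESeq2 and the build hg38, with no role. The counting and annotation are not given in the sources used here. Libraries were grouped by the treatment in their labels.

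For each pair of groups, its 6 libraries were kept, genes were filtered by filterByExpr at a minimum count of 10, and edgeR 4.0.16 (R 4.3.3) was run with TMM scaling and its quasi-likelihood test, with Benjamini-Hochberg adjustment over all genes tested. The interaction was fitted on all 12. Calls needed an adjusted p under 0.05. For CPM, TMM factors came from all 12 libraries together. Of the symbols, 19029 matched GENCODE 29. With 3 libraries a group, exact permutation p-values stop at 0.1. Steps were tested on simulated counts.

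The 9 members are named in every comparison. From each list, the gene with the smallest p in each direction was eligible in each comparison, and the 3 closest profiles were named for each member except MICA, for which they are not reported here. The members and lists were chosen with earlier results of these data known. Promoter sequences are from RefSeq (GRCh38.p14), and all 9 members matched. Alternatives covered the test (DESeq2 1.42.0), normalization, filter, libraries in the fit, replicate block, count scale, threshold and each library left out.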

Additional observations from a re-analysis of the deposited data

Results flagged for a closer look

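In each of the 8 ligands tested, the lycorine difference was not the same in the 2 lines by the interaction test of edgeR over 12 libraries, given here as the log2 difference in K562/IM as labelled minus that in K562. It was -4.03 for NCR3LG1 (SE 0.70, adjusted p = 3.63e-04), -2.29 for ULBP2 (SE 0.20, adjusted p = 1.80e-06) and -1.36 for PVR (SE 0.13, adjusted p = 4.69e-06). These 3 had opposite signs in the lines, although the difference of PVR in K562 did not itself pass. The value was 1.14 for ULBP1 (SE 0.20, adjusted p = 4.66e-04) and -0.59 for MICB (SE 0.10, adjusted p = 2.97e-04). It was 0.62 for MICA (SE 0.14, adjusted p = 0.00271), 0.47 for NECTIN2 (SE 0.14, adjusted p = 0.0132) and -0.29 for BAG6 (SE 0.10, adjusted p = 0.0208). MICA also had opposite signs, -0.41 in K562 and 0.23 in K562/IM as labelled, of which the latter did not itself pass. The interaction of NCR3LG1 was -4.98 without replicate 3 of the libraries with the label K562/IM+L, and that of BAG6 lost its call without K562 replicate 1, K562+L replicate 1 or K562/IM replicate 3 (adjusted p of 0.0517 to 0.0703). All 8 values rest on the label of the libraries with the label K562/IM+L. No group had more than 3 libraries, so no test for an outlying library was made.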

How the results depend on the processing

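Over the members and alternatives, 26 values lost a call, 4 gained one and 8 turned direction, and the others kept both. None of the turned values was called. With 1 library left out, the log2 difference ran from -0.0042 to 0.069 for MICB and from -0.043 to 0.065 for BAG6 in K562/IM against K562, from -0.14 to 0.017 for ULBP1 in the libraries with the label K562/IM+L against K562/IM, and, in the latter against K562, from -0.14 to 0.026 for MICA and from -0.014 to 0.068 for BAG6. MICA in that comparison was 0.093 under upper-quartile normalization. Leaving out 1 library at a time left 4 to 6 members called in K562+L against K562, 4 to 6 in K562/IM against K562, 4 to 5 in the libraries with the label K562/IM+L against K562/IM, 4 to 5 against K562 and 7 to 8 in the interaction. With a log2 fold change over 1 required as well, 2, 0 and 1 members passed in K562+L against K562, K562/IM against K562 and the libraries with the label K562/IM+L against K562.

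Counts over all genes moved by over 1.5 times with that fold, to 826 from 4821 in K562+L against K562, 2566 from 7661 in K562/IM against K562, 3917 from 9169 in the libraries with the label K562/IM+L against K562/IM and 3162 from 7446 against K562. In K562+L against K562 they also moved to 2871 without K562 replicate 2, 2971 without K562+L replicate 1 and 3058 without K562+L replicate 3. Upper-quartile normalization moved the median of all genes by 0.15 in the libraries with the label K562/IM+L against K562 and by 0.13 in the interaction, where BAG6 then lost its call (-0.16, adjusted p = 0.190). Correlations between same-numbered libraries ran from -0.23 to 0.15, so no strong shared deviation was seen. With 3 libraries a group and no word in the labels, this cannot decide whether the numbers pair the samples. With the replicate number as a block, 3126 genes passed in K562+L against K562, and MICA (adjusted p = 0.0706) and BAG6 (0.0839) did not pass there, nor ULBP2 (0.0785) and NCR3LG1 (0.0514) in the libraries with the label K562/IM+L against K562. The block changed no other call of a member. The cause of these changes was not tested. Low counts limit ULBP3, and the pile-up near multiples of 4 makes counting noise uncertain for the low members.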
